A study of Canis lupus familiaris with 28 samples.

Results

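Of the 29884 dog transcripts counted in TR-T10 cells, 83 took many reads in every condition of the study and changed little between conditions. They were selected on their measured levels. The level is in CPM, a transcript's count divided by the total of transcript-assigned reads of its library and put on a common scale, and it was averaged over the libraries of each of 12 groups. A transcript was kept when its group mean was at least 100 CPM in all 12 groups and the highest and lowest values of log2(group mean CPM + 1) lay at most 0.4 apart, which is called its range here. The level condition left 1580 transcripts and the range condition 83 of those, 5.25% of the 1580 and 0.278% of all transcripts. Since the rule used every group mean, the small differences between groups reported for these 83 describe how they were chosen and are not a finding. Values outside the rule come from a choice made in 1 experiment alone and read in the other.

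TR-T10 is a dog cell line. Its engineered derivatives carry shRNAs that doxycycline induces through the tetracycline repressor, directed at p190A (ARHGAP35), p190B (ARHGAP5) or both, and the title of the series places the work on contact inhibition of proliferation. Experiment 1 had 2 libraries in each of 8 groups, which were double knockdown, p190A knockdown, p190B knockdown and wild type, each at confluence and below it. Experiment 2 held confluent cells only, in 4 groups: 3 samples labelled YAP5SA, 3 of double knockdown with YAP5SA+S94A, 3 of double knockdown and 3 of wild type. YAP5SA is a form of the coactivator YAP1 that escapes inhibition by the LATS kinases, and S94A removes its binding to TEAD factors. Labels of the YAP5SA samples conflict on whether both shRNAs were present, so these are named by their label. The protocol gives 3 days at 4 µg/ml doxycycline and then 3 to 5 days after replating. Whether wild-type cells were given doxycycline is not stated. Each engineered line was selected separately with a drug (hygromycin, puromycin or G418). No label says that replicates were separate cultures, so the spread between them may be technical.

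YAP1 is a transcriptional coactivator that works through TEAD factors and is held back in dense epithelial cultures. Changes in its activity alter the transcription of many genes, and growth to confluence changes proliferation genes besides. Against such shifts, transcripts that stay level are used in the field as internal references, typically genes for translation, protein turnover or energy metabolism. Whether the 83 belong to such classes could not be read. The files give Ensembl transcript identifiers without gene names, and 0 of the 29884 identifiers occur in the reference table of 43286 dog genes used here. The identifiers are therefore printed as deposited, the gene lists drawn up for naming were not run, and neither the shRNA targets nor markers of the cell type could be checked.

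Transcript-assigned counts summed to between 10706716 and 17215544 in the 27 distinct libraries. The files of YAP5SA replicates 1 and 2 were identical and entered once, which left 2 libraries in that group. The sub-confluent p190A libraries differed most from each other, with a median coefficient of variation of 10.2% over the 1497 abundant transcripts outside the set. Without that group, 89 transcripts met the rule over 11 groups, among them all 83.

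By mean over groups, the set lay in the lower part of the abundant transcripts. Its mean over groups ran between 111 and 811 CPM with a median of 189 CPM, while the other 1497 had a median of 242 CPM and reached 14045 CPM. This contrast depends in part on the rule, since a wide range above the level limit raises the mean. The lowest group mean had a median of 163 CPM in the set and 167 CPM in the others. The shares by mean CPM given next carry the same dependence. CPM is not corrected for transcript length, so these values compare reads and not molecules. None of the 90 transcripts with a mean of 1000 CPM or more was in the set, and 4 of the 289 at 500 CPM or more were, a share of 1.38%. Below 200 CPM the share was 8.12%, 47 of 579. Together the 83 transcripts took 1.88% to 1.99% of the counts of a library, against 60.9% to 64.6% for all 1580. The fewest counts behind any single value of the set were 1072, so all 83 passed the filter on low counts in both experiments.

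**Figure D1:**
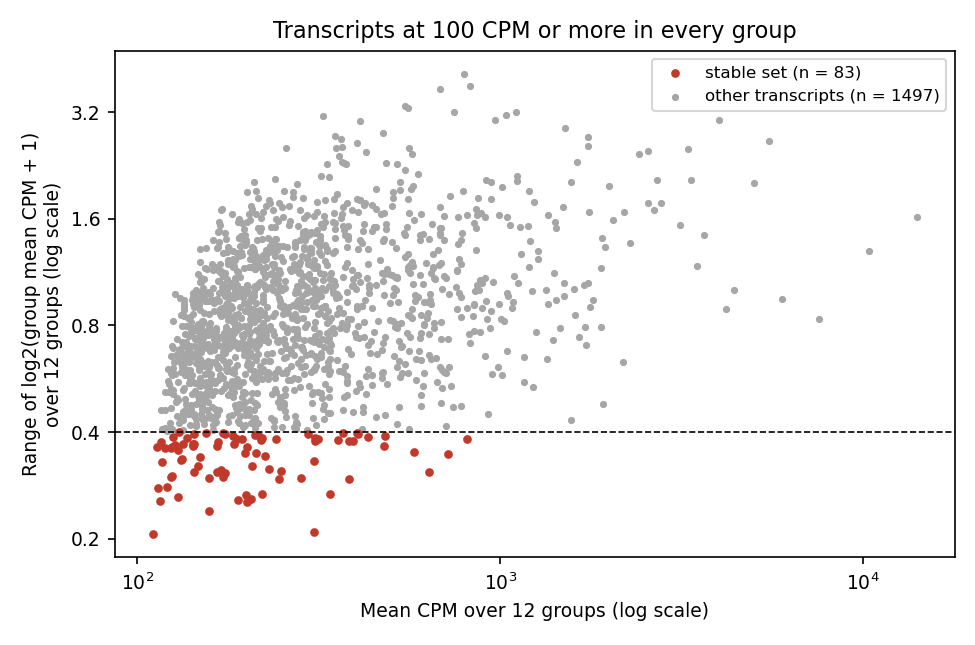
Each point is 1 of the 1580 transcripts at 100 CPM or more in every group, with its mean CPM over the 12 groups on a log axis and its range of log2(group mean CPM + 1) on a log axis; red points are the 83 stable transcripts and grey points the other 1497. The dashed line is the limit of 0.4, and the red points end at 811 CPM while grey points run to 14045 CPM.

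Within the set the range ran between 0.21 and 0.40 with a median of 0.36. In linear terms the highest group mean was 1.15 to 1.32 times the lowest. Only 3 transcripts had a range of at most 0.25, 19 had at most 0.3 and 38 at most 0.35, so most sat close to the limit. The other abundant transcripts had a median range of 0.86. The limit fell within a continuous distribution. The last transcripts inside it were ENSCAFT00000003208 at 0.3987 and ENSCAFT00000011491 at 0.3999, and the first outside were ENSCAFT00000012075 at 0.4008 and ENSCAFT00000039408 at 0.4024. At the level limit, ENSCAFT00000016560 was inside with a lowest group mean of 100.2 CPM and ENSCAFT00000025561 outside with 99.1 CPM.

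The smallest range belonged to ENSCAFT00000030276, at 0.21. At confluence in experiment 1 its libraries read 111 and 109 CPM in double knockdown cells, 104 and 116 CPM in p190A knockdown cells, 113 and 117 CPM in p190B knockdown cells, and 108 and 109.7 CPM in wild-type cells. Below confluence they read 105 and 116 CPM in double knockdown cells, 105 and 109 CPM in p190A knockdown cells, 105 and 111 CPM in p190B knockdown cells, and 112 and 126 CPM in wild-type cells. In experiment 2 they read 102 and 104 CPM in the libraries labelled YAP5SA, 112, 111 and 113 CPM in double knockdown cells with YAP5SA+S94A, 119, 119 and 116 CPM in double knockdown cells, and 108, 106 and 104 CPM in wild-type cells. All groups of experiment 1 overlapped at least 1 other group, and a sub-confluent wild-type library held the highest value. In experiment 2 the libraries labelled YAP5SA and those of wild type overlapped, double knockdown with YAP5SA+S94A lay above both, and double knockdown lay above all 3 without overlap.

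The next smallest range, 0.21 as well when rounded, was that of ENSCAFT00000013410, which had a mean of 307 CPM against 111 CPM for ENSCAFT00000030276. At confluence in experiment 1 it had 299.8 and 311 CPM in double knockdown, 292 and 326 CPM in p190A knockdown, 315 and 304 CPM in p190B knockdown, and 278 and 300.3 CPM in wild-type libraries. Below confluence it had 319.5 and 326 CPM in double knockdown, 292 and 319.99 CPM in p190A knockdown, 319.6 and 296 CPM in p190B knockdown, and 289.9 and 319.7 CPM in wild-type libraries. In experiment 2 it had 338 and 330.4 CPM in the libraries labelled YAP5SA, 299 and 308 and 301 CPM in double knockdown with YAP5SA+S94A, 305 and 292 and 285 CPM in double knockdown, and 302 and 287 and 297 CPM in wild type. The libraries labelled YAP5SA were the highest of experiment 2 and overlapped no other group there, and the other 3 groups of that experiment overlapped each other.

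The other 4 transcripts with the smallest ranges were ENSCAFT00000047049 (range 0.24), ENSCAFT00000023078 (0.25), ENSCAFT00000000728 (0.26) and ENSCAFT00000007253 (0.26). ENSCAFT00000007253 had 181 ± 7.11 CPM in double knockdown against 213 ± 0.657 CPM in wild-type cells at confluence in experiment 1 (SD, n = 2 each). In experiment 2 it had 186 ± 4.098 CPM in double knockdown against 199 ± 2.23 CPM in wild-type cells (SD, n = 3 each). By CPM, every double knockdown library was below every wild-type library in both experiments, without overlap. The size of this difference depends on the scaling. edgeR's quasi-likelihood test, described below, corrects libraries for composition by TMM. For double knockdown against wild type it gave a log2 fold change of -0.21 in experiment 1 (adjusted p 0.0527). In experiment 2 it gave -0.03 (adjusted p 0.383), so neither was called at an adjusted p under 0.05. ENSCAFT00000000728 shows the reach of single libraries: sub-confluent p190B knockdown had 140 and 112 CPM in its 2 libraries, and the range over all single libraries was 0.505.

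**Figure D2:**
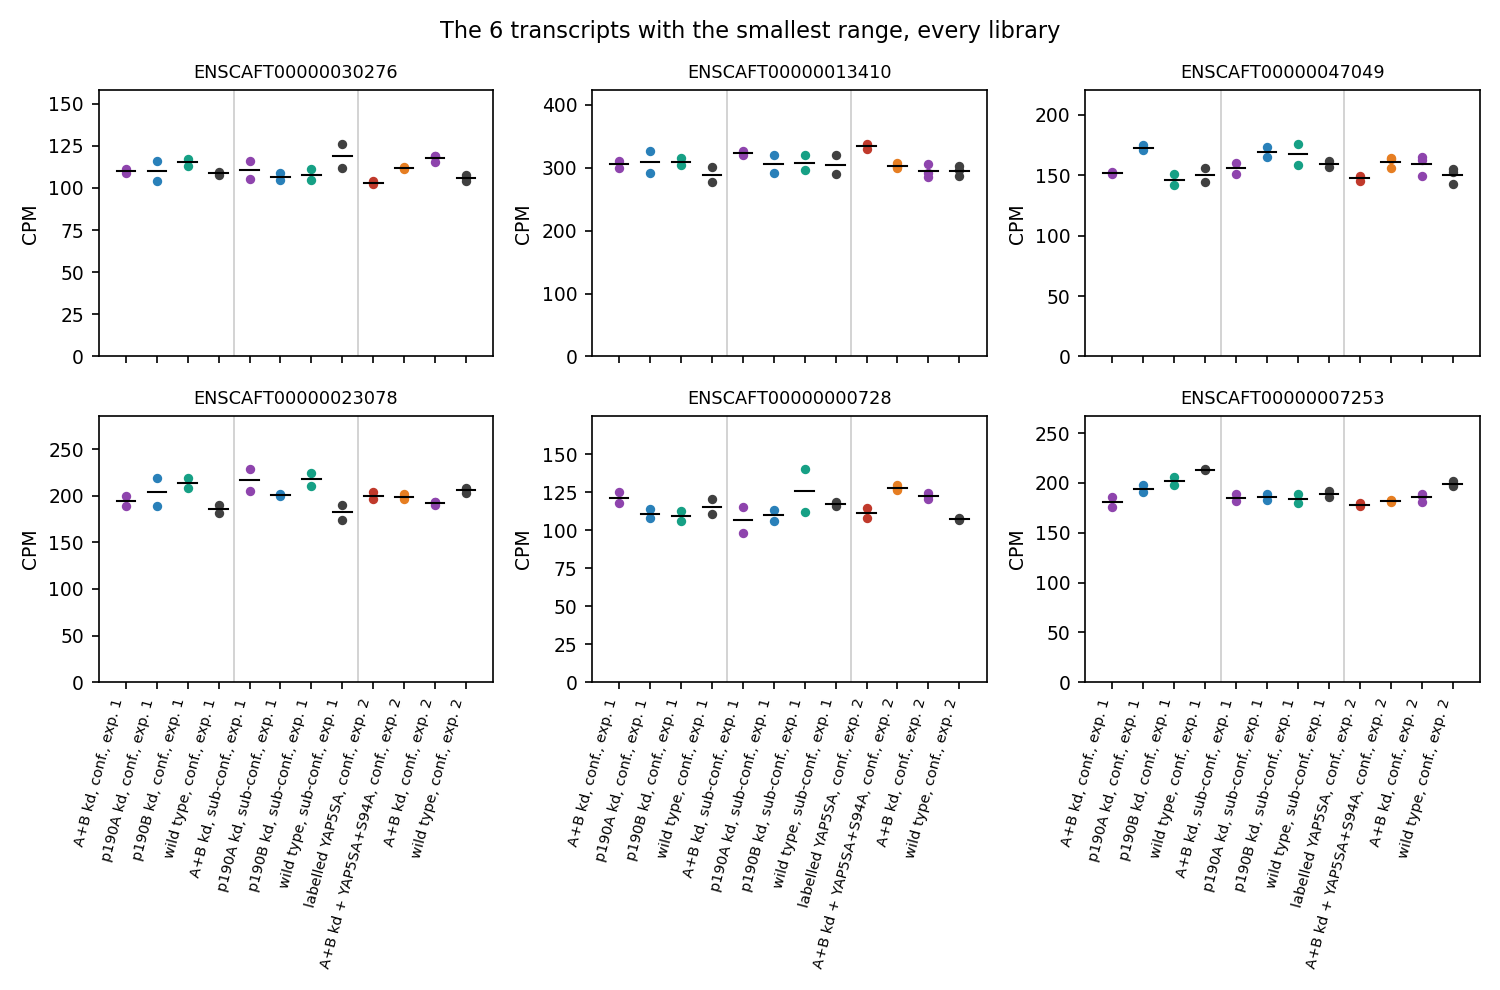
CPM (vertical axis, from 0) of the 6 transcripts with the smallest range in every library of the 12 groups; points are libraries, black bars group means, grey lines separate confluent and sub-confluent groups of experiment 1 and experiment 2 ("kd" is knockdown, "conf." confluent, "exp." experiment). The highest group mean was 1.15 to 1.196 times the lowest, and no group stands apart from the rest in all 6 panels.

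The stable transcripts with the most reads were ENSCAFT00000008872 with a mean of 811 CPM, ENSCAFT00000032087 with 718 CPM, ENSCAFT00000020001 with 635 CPM and ENSCAFT00000019083 with 578 CPM. All had ranges between 0.31 and 0.38. ENSCAFT00000008872 was at 931 ± 8.36 CPM in double knockdown and 876 ± 33.7 CPM in wild-type cells in experiment 2 (SD, n = 3 each). In experiment 1 at confluence it was at 734 ± 73.0 CPM in double knockdown and 888 ± 11.04 CPM in wild-type cells (SD, n = 2 each). The order of double knockdown and wild type was thus opposite in the experiments. Its p190B knockdown libraries at confluence read 731 and 925 CPM, a gap as wide as nearly all of the difference between its highest and lowest group means.

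The rule did not read the spread between replicates, but group means of 2 or 3 libraries carry it, so a noisy transcript met the range limit less easily and the spread is not independent of the choice. A transcript's coefficient of variation between replicates, taken as the median over the 12 groups, had a median of 3.21% in the set (SD of the group medians 1.12%, 12 groups) and 3.65% in the other abundant transcripts. Counting error alone, from the mean count of a transcript, came to a median of 1.96% in the set and 1.73% in the others. Each is the square root of the count relative to the count, and covers counting error only. The pooled replicate SD of log2(CPM + 1) had a median of 0.06 in the set and 0.09 in the others. The smallest spread in the set was that of ENSCAFT00000023434 at 1.39% and the largest that of ENSCAFT00000003208 at 6.47%.

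By group, the median coefficient of variation of the 83 lay between 2.65% and 4.88% for experiment 1, and between 1.69% and 2.51% for experiment 2. The gap to the other abundant transcripts was widest in sub-confluent p190A knockdown, with 4.88% in the set and 10.2% in the others. In the libraries labelled YAP5SA the order was turned, with 2.07% in the set and 1.73% in the others. Within experiment 2 as a whole the medians were close, 2.197% in the set and 2.24% in the others, and within experiment 1 they were 3.85% and 5.45%. A median of SDs from 2 or 3 libraries lies below the true spread, so these values serve for comparison between sets and not as absolute errors.

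**Figure D3:**
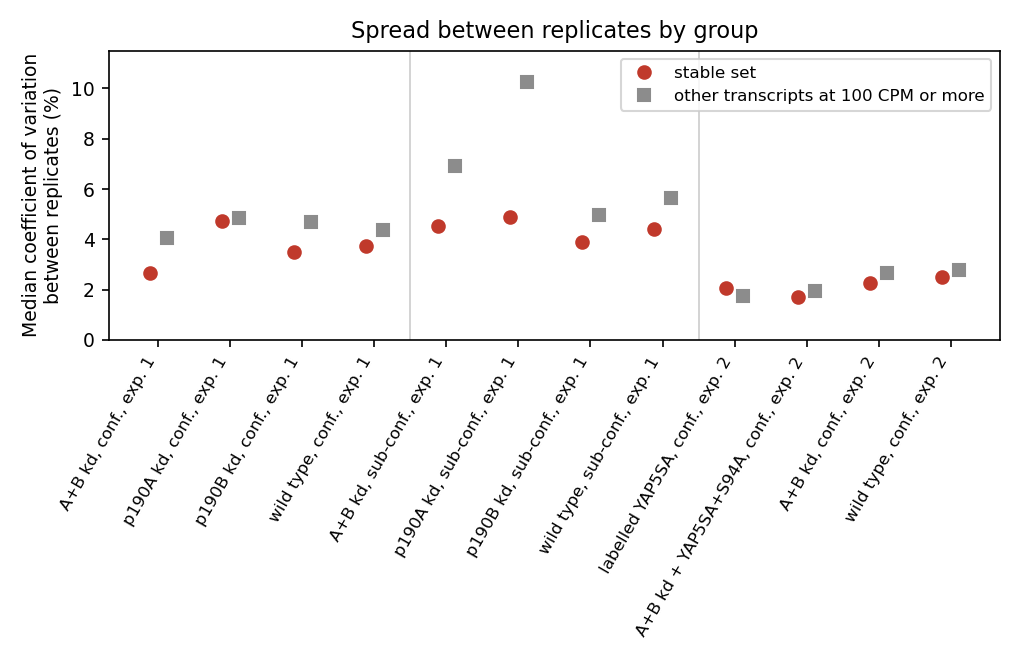
Median coefficient of variation between replicates in percent (vertical axis, from 0) for the 83 stable transcripts (red circles) and the other 1497 transcripts at 100 CPM or more (grey squares) in each of the 12 groups, with 2 or 3 libraries per group. Red lies below grey in all groups except the libraries labelled YAP5SA, and both are lower in experiment 2 (right) than in experiment 1.

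The spread of the group means, which the rule limited, can be set beside the replicate spread as a description. The SD of the 12 group means exceeded the pooled replicate SD for 79 of the 83 stable transcripts and for 1487 of the 1497 others, with medians of 0.11 and 0.27 for the SD of the group means. Over single libraries, the range of the stable transcripts had a median of 0.44 and a maximum of 0.62, and 25 of the 83 stayed within 0.4 across all 27 libraries. Group medians, centred on each transcript's mean, lay between -0.04 in the libraries labelled YAP5SA and 0.03 in double knockdown at confluence in experiment 1. No group held most of the extremes. The highest value fell in sub-confluent wild type for 12 transcripts and in wild type of experiment 2 for 12, and the lowest in the libraries labelled YAP5SA for 14. Double knockdown with YAP5SA+S94A was the group nearest the middle, highest for 1 transcript and lowest for 3.

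The leading pattern set confluent wild type of both experiments apart from double knockdown of experiment 1. The first principal component of the 83 centred profiles took 23.1% of their variance. Its weights were -0.41 for double knockdown and 0.48 for wild type at confluence in experiment 1, and -0.10 for double knockdown and 0.52 for wild type in experiment 2. Sub-confluent double knockdown also weighed negatively at -0.39, and sub-confluent wild type was near 0 at 0.06. The double knockdown minus wild type difference at confluence could be compared between experiments, which share no library. Across transcripts, which are not independent, its Pearson correlation between experiments was 0.40 and its Spearman correlation 0.41 in the set (n = 83), against 0.63 and 0.61 in the other abundant transcripts (n = 1497). The sign agreed for 52 of the 83 (62.7%), 29 higher and 23 lower in double knockdown, and for 73.0% of the others. Only 9 of the 83 differed by more than 0.2 in the same direction in both experiments, 4 higher and 5 lower in double knockdown. Of the 1497 others, 331 were higher and 260 lower by more than 0.2 in both. These values are descriptions, since the rule limited both differences.

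**Figure D4:**
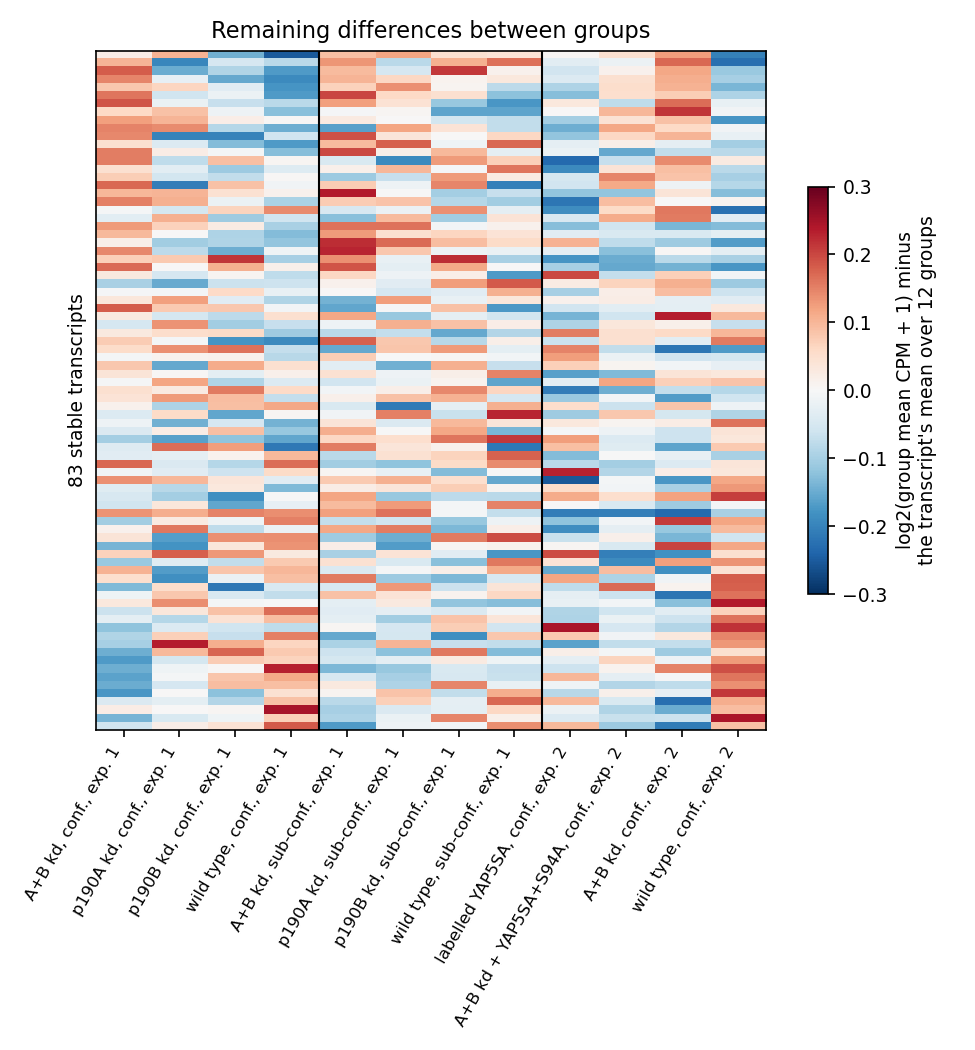
Difference of log2(group mean CPM + 1) from each transcript's mean over the 12 groups (colour, red higher and blue lower) for the 83 stable transcripts in rows and the 12 groups in columns; black lines separate confluent and sub-confluent groups of experiment 1 and experiment 2. Rows are sorted by the double knockdown minus wild type difference at confluence summed over both experiments, so the opposite shading of those columns from top to bottom is set by the sorting; no column is all red or all blue.

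The comparisons of the study, read on these transcripts, gave small values throughout. On the log2(group mean CPM + 1) scale, the median absolute difference in the set was 0.13 for double knockdown against wild type at confluence in experiment 1 and 0.14 in experiment 2, against 0.34 and 0.28 in the other abundant transcripts. For confluent against sub-confluent wild type it was 0.10 in the set and 0.27 in the others. For the libraries labelled YAP5SA against double knockdown it was 0.11 in the set and 0.27 in the others. For double knockdown with YAP5SA+S94A against double knockdown it was 0.07 in the set and 0.18 in the others. On this CPM scale no difference of the set went beyond 0.40, as the rule requires.

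With edgeR's quasi-likelihood test at a Benjamini-Hochberg adjusted p under 0.05, 60 of the 83 (72.3%) were called between double knockdown and wild type in experiment 2, 37 higher and 23 lower, where 70.3% of all tested transcripts and 85.4% of the other 1497 abundant ones were called. The smallest called difference in the set was 0.07 on the log2 scale, and the largest difference of any of the 83 was 0.47. The test scales libraries by TMM, while the rule used CPM. By CPM, 38 of the 83 were higher and 45 lower in double knockdown. Between the libraries labelled YAP5SA and double knockdown 48 (57.8%) were called, 21 higher and 27 lower, where 63.6% of all tested and 82.0% of the other abundant ones were. The biological coefficient of variation, edgeR's estimate of the replicate spread beyond counting, was 0.0303 in experiment 2 and 0.128 in experiment 1. Each is 1 common value over all groups of the experiment. In experiment 1 these include sub-confluent p190A knockdown, with a median coefficient of variation of 10.2% in the other abundant transcripts. That median was 4.37% in confluent wild type, 5.66% in sub-confluent wild type and 4.05% in confluent double knockdown of experiment 1.

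In experiment 1, between double knockdown and wild type at confluence 14 of the 83 were called, 10 higher and 4 lower, where 43.6% of all tested transcripts and 55.1% of the other abundant ones were. That count was 1 and 4 without wild-type replicates 1 and 2, 2 without either double knockdown replicate, and 6 without the filter on low counts. Between confluent and sub-confluent wild type 5 were called, all lower at confluence, where 29.3% of all tested and 41.6% of the other abundant ones were. This direction depends on the scaling, since by CPM 38 of the 83 were higher at confluence and 45 lower. After TMM, which the test uses, 22 were higher and 61 lower. Without confluent wild-type replicates 1 and 2 edgeR called 0 (4 and 11 at unadjusted p under 0.05), and without sub-confluent replicate 2 it called 1. Each of these fits without a replicate leaves 1 library in an arm, which is assumed to vary like the other groups, and the lost library alone lowers the power. Since the rule used each of these contrasts, the counts are given beside the background and nothing is read from the gap.

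A scaling factor moves all transcripts of a library alike, so differences that the rule holds near 0 can change sign with it. The splits are therefore given under both scalings, and none is read as a result about the transcripts. TMM factors, edgeR's correction for the composition of a library, ran between 0.945 and 1.08, a shift of 0.19 on the log2 scale between the extreme libraries. Their group mean was highest in wild type of experiment 2 (1.07) and lowest in sub-confluent p190B knockdown (0.95). For double knockdown against wild type in experiment 2, 38 of the 83 were higher and 45 lower by CPM, and 49 higher and 34 lower after TMM. For confluent against sub-confluent cells the CPM split of 38 higher and 45 lower in wild type became 22 and 61 after TMM, that of 44 and 39 in p190A knockdown became 28 and 55, and that of 33 and 50 in p190B knockdown became 21 and 62. For double knockdown against wild type below confluence the split of 46 higher and 37 lower became 37 and 46. For double knockdown with YAP5SA+S94A against double knockdown, 39 higher and 44 lower became 46 and 37. For p190A knockdown against wild type, 42 and 41 below confluence became 36 and 47, and 44 and 39 at confluence became 50 and 33. For p190B knockdown against wild type at confluence, 46 and 37 became 54 and 29, and below confluence 47 and 36 became 48 and 35. Between confluent and sub-confluent double knockdown, 36 and 47 became 35 and 48. The split moved little for double knockdown against wild type at confluence in experiment 1. It was 51 higher and 32 lower by CPM, and 54 and 29 after TMM. For the libraries labelled YAP5SA against double knockdown the split was 35 higher and 48 lower under both.

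Membership itself also changed with the scaling. With TMM library sizes 67 transcripts met the rule, 45 of the 83 and 22 others. With DESeq2 size factors 71 met it, 48 of them from the 83. Under all 3 scalings 44 of the 83 held. The median range of the 83 was 0.38 with TMM, just under the limit, and the largest 0.56. ENSCAFT00000030276, first by CPM with 0.21, had a range of 0.34 with TMM and dropped out only because its lowest group mean came under 100 CPM. ENSCAFT00000000728 missed the range limit with TMM and met the rule with DESeq2 size factors. ENSCAFT00000013410 kept a range of 0.25 and ENSCAFT00000007253 one of 0.27. Of the 6 with the smallest range, 4 met the rule with TMM and 5 with every single library left out. Over all members, 33 met the rule with every single library left out, and 21 met it under all 3 scalings as well.

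A choice made in 1 experiment could be followed in the other. The rule applied to the 8 groups of experiment 1, for level and range, kept 326 of the 1703 transcripts at 100 CPM or more there. In experiment 2, whose libraries had no part in that choice, 205 of the 326 kept within 0.4, a share of 62.9%. Of the 1377 at the same level that experiment 1 did not choose, 529 did so, a share of 38.4%. The median range in experiment 2 was 0.34 for the chosen and 0.48 for the others, and the largest among the chosen was 1.30. In the reverse direction experiment 2 chose 868, and 213 of these kept within 0.4 over the 8 groups of experiment 1, a share of 24.5% against 9.89% of the 1062 at the same level that were not chosen. Experiment 1 spans both densities and experiment 2 does not, so the shares of the directions are not comparable with each other. This form, with the level read in the choosing experiment alone, was added after seeing the data. With 100 CPM asked in all 12 groups, 192 transcripts kept within 0.4 in each experiment, among them the 83.

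**Figure D5:**
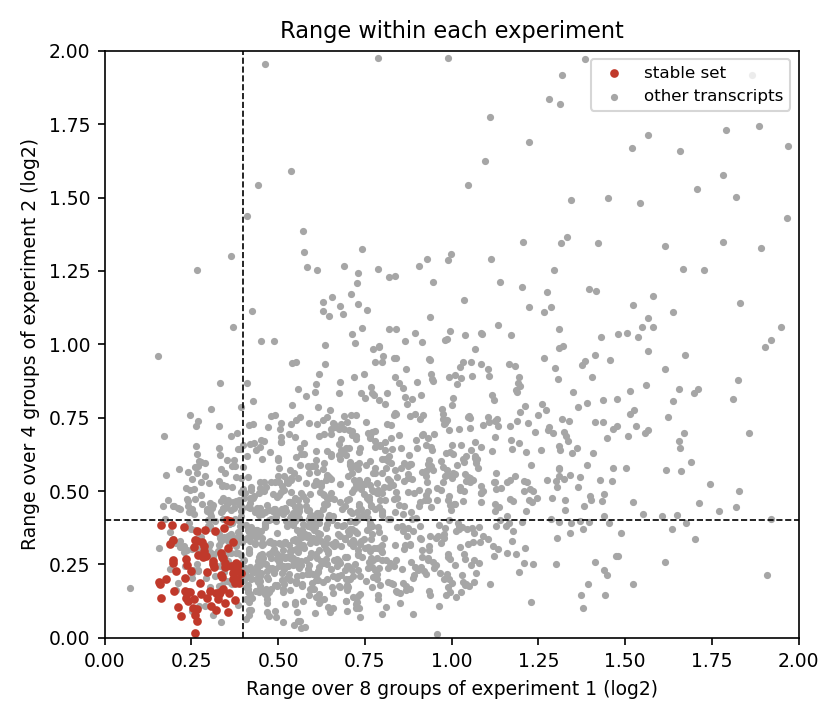
Range of log2(group mean CPM + 1) over the 8 groups of experiment 1 (horizontal axis) and over the 4 groups of experiment 2 (vertical axis) for the 1580 transcripts at 100 CPM or more in every group, with the 83 stable ones in red; dashed lines mark 0.4, and 30 transcripts lie beyond the axes. The lower left field holds 192 transcripts, and points to the left of the vertical line spread upward beyond 0.4 in experiment 2.

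The 326 transcripts chosen on experiment 1 could also be tested in experiment 2. For double knockdown against wild type, edgeR called 259 of the 326, 79.4%, with 143 higher and 116 lower. It called 86.1% of the 1377 at the same level that were not chosen and 70.3% of all tested, so the share lay between these backgrounds. The median absolute log2 fold change was 0.20 in the chosen, 0.31 in those not chosen and 0.37 in all tested. For the libraries labelled YAP5SA against double knockdown, 243 of the 326 were called, 74.5%, beside 82.9% of those not chosen and 63.6% of all tested. The median absolute log2 fold changes were 0.20 in the chosen and 0.29 in those not chosen. As a sum, the 326 took 8.08% ± 0.073 (SD, n = 2) of the counts in the libraries labelled YAP5SA, 8.47% ± 0.068 (SD, n = 3) in double knockdown with YAP5SA+S94A, 8.88% ± 0.036 (SD, n = 3) in double knockdown and 8.80% ± 0.049 (SD, n = 3) in wild type. The libraries labelled YAP5SA lay below the other groups by more than the SD of any group, a difference that was not tested. By the median log2 fold change of these libraries against double knockdown in edgeR's fit, a downward shift was not particular to the chosen. The median was -0.0723 in the 326, -0.0697 in those not chosen and -0.0018 in all tested. It is another measure than the sum. All transcripts at 100 CPM or more in every group took 61.3% and 61.5% of the counts in the libraries labelled YAP5SA. In double knockdown they took 62.5%, 62.6% and 62.9%, so their sum fell by a smaller part than that of the 326.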

How the data were processed

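Per the labels' protocols, TruSeq mRNA libraries were sequenced as single reads. The authors deposited 1 table of raw read counts per sample, over 29884 Ensembl dog transcripts and 5 summary rows. Tools listed without a role in the submitters' processing notes are DESeq2 1.4.5, HTSeq 0.6.0 and STAR 2.3.1n, with CanFam3.1 as build. The annotation release, strand setting and counting mode are not given in the sources used here. Of reads aligned to 1 place, 20.3% to 23.1% were ambiguous between transcripts and 21.2% to 23.8% outside them; these rows were left out of library sizes, so overlapping transcripts are measured from part of their reads.

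CPM, group means and ranges were computed in Python 3.11.15 with a pseudocount of 1. Tests used edgeR 4.0.16 (filterByExpr, TMM, robust quasi-likelihood, Benjamini-Hochberg over all transcripts), with 1 fit for the 16 libraries of experiment 1 and 1 for the 11 of experiment 2. DESeq2 1.42.0 and limma-voom 3.58.1 were alternatives. The scripts were tested on simulated data. The members, lists and tests were chosen with earlier results of these data known. Transcripts named are those with the 6 smallest ranges, the 4 highest mean CPM, the extremes of replicate spread and those next to each limit. Without gene names, no sequence is shown.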

Additional observations from a re-analysis of the deposited data

How the results depend on the processing

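The number of stable transcripts, 83, was 67 to 106 with TMM or DESeq2 scaling, a pseudocount of 0 or 10, the identical file kept, or sub-confluent p190A knockdown left out (a setting chosen after seeing the data), and 73 to 89 with each library left out. It was 19 and 220 with range limits of 0.3 and 0.5, 171 and 27 with level limits of 50 and 200 CPM, 25 with the range over single libraries, 35 when scaled to all reads aligned to 1 place, and 326, 868 and 195 over the groups of experiment 1, of experiment 2 and the confluent groups. The looser or tighter limits and smaller numbers of groups set these counts by construction. The larger denominator lowers every value against the level limit, which 710 transcripts then met. It also differs between libraries and so changes the ranges, and 28 of the 35 were among the 83. The 192 transcripts that kept within the range in the other experiment, in either direction, became 53 and 381 with range limits of 0.3 and 0.5, 391 and 64 with level limits of 50 and 200 CPM, and 188 with TMM. With the level read in the choosing experiment alone (added after seeing the data) it was 205 from experiment 1 and 213 from experiment 2. The median replicate coefficient of variation was 3.26% with TMM, 3.85% in experiment 1 and 2.197% in experiment 2.

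With a replicate block the members called were 6 for confluent against sub-confluent wild type, and 18 and 55 for double knockdown against wild type in experiments 1 and 2. Same-numbered libraries did not deviate together throughout (r across transcripts 0.011 in the first comparison, 0.22 in the second, 0.010 to 0.028 in the third), so the numbers were not taken as pairs, and the block was not fitted for the libraries labelled YAP5SA, whose titles all carry 1 letter and whose numbers only follow their order. Leaving out single libraries gave 0 to 4, 1 to 4, 52 to 61 and, for YAP5SA against double knockdown, 41 to 49, where any arm left with 1 library took its spread from the remaining groups of the fit. Without the filter on low counts the second was 6; the cause was not tested. All other settings kept the 4 counts within 1.5 times. The fewest counts behind a value were 1072.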
